A study of Mus musculus with 27 samples.

Results

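Transcripts of 10 NF-kappaB genes were followed through cells of tumour-bearing and healthy mouse lung: the subunits Nfkb1, Nfkb2, Rel and Relb, the IkappaB family members Nfkbia, Nfkbie, Nfkbiz and Bcl3, and the ubiquitin-system regulators Tnfaip3 and Birc3. They were taken by gene symbol, 10 of the 16024 rows of the deposited table, and all 10 passed the filter on low values in every comparison below. RNA sequencing covered 27 libraries in 10 groups, which are 5 cell preparations, each from tumour-bearing and from wild-type (WT) lungs of C57BL/6 mice. Tumours grew from HKP1 cells, a cultured mouse lung cancer line that was given through the tail vein, and the tumour libraries carry a time of day 20 to day 25. Macrophages were CD11c+CD11b+ in tumour lung (n = 3) and CD11c+CD11b- in WT lung (n = 2), so the gates of this pair differ. Monocytes were CD11b+Ly6C+ (n = 2 in each kind of lung), neutrophils CD11b+Ly6G+ (n = 3 each) and epithelial cells Epcam+CD11b-CD11c- (n = 3 each), a gate that does not separate host epithelium from HKP1 cells that carry Epcam. Total lung cells were not divided by a gate (n = 3 each). Whether each library is another mouse is not in the labels, and the p-values below reflect only how far these libraries vary, which may be technical.

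NF-kappaB is a family of dimeric transcription factors that drive inflammatory and survival genes. In resting cells IkappaB proteins hold the dimers in the cytoplasm. Ligands such as tumour necrosis factor and interleukin 1 set off IkappaB breakdown and let the dimers enter the nucleus. Several of the genes that they switch on encode members of the same circuit, among them IkappaBalpha (Nfkbia) and the ubiquitin-editing enzyme A20 (Tnfaip3), which act as negative feedback. Resident and recruited leukocytes of the lung use this circuit to respond to injury and infection.

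Promoter stretches of 5 members are shown because several of these genes are known targets of NF-kappaB itself, and the kappaB element is what the dimers bind. They are upstream stretches of RefSeq start sites on GRCm38.p6, written 5′ to 3′ on the gene's strand in lower case. Capitals mark every match, overlapping matches included, to the kappaB decamer consensus on either strand.
Nfkb2: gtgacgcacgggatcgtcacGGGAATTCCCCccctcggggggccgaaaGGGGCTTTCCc
Rel: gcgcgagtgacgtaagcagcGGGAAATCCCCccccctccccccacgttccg
Nfkbia: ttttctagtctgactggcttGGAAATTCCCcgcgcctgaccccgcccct
Nfkbie: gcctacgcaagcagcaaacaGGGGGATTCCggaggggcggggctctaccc
Tnfaip3: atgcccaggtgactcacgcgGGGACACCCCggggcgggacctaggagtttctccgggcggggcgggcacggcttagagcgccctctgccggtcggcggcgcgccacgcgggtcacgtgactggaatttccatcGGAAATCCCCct
The Nfkb2 stretch is chr19:46304678-46304736 on the plus strand and holds 3 matches, which begin at -39, -38 and -11 from the start base. The Rel stretch, chr11:23771031-23771081 on the minus strand, has overlapping matches at -92 and -91. Nfkbia, at chr12:55492648-55492696 on the minus strand, has a match at -29, and Nfkbie, at chr17:45555574-45555623 on the plus strand, at -106. Tnfaip3, at chr10:19015411-19015555 on the minus strand, has matches at -125 and -12. In windows from 250 bases before to 50 after a start site, 6 of the 7 member genes with a window held a match, Bcl3 by one that lies past its start base and Birc3 with none. Some of these genes have several windows, so the count of genes is not a share of windows. Counted by window, 8 of the 10 member windows held a match. The other Nfkb2 windows, which are not shown, also held matches, and another Tnfaip3 window held 0. Of all 32851 windows, 4.51% held a match, as did 5.43% of the 15057 windows of genes of the table. Nfkb1, Relb and Nfkbiz were not matched to a window. A match describes letters only, and no match says only that these letters are not in the window.

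On GRCm38 with GENCODE M21, the subunit genes lie at chr3:135584655-135691547 (Nfkb1), chr19:46304320-46312385 (Nfkb2), chr11:23736847-23770970 (Rel) and chr7:19606217-19629438 (Relb). The IkappaB family lies at chr12:55489410-55492647 (Nfkbia), chr17:45555703-45563169 (Nfkbie), chr16:55811375-55838899 (Nfkbiz) and chr7:19808462-19822770 (Bcl3). Tnfaip3 is at chr10:19000910-19015657 and Birc3 at chr9:7848699-7873186. The values are FPKM of the whole gene, in which fragment numbers are divided by transcript length and by the mapped total, so levels of different genes can be set side by side per length. Differences are on the log2(FPKM + 1) scale, given with the standard error (SE) of limma.

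Fragment counts were not analysed here, and the relative depth read from the spacing of the lowest values was rough. It ran from 0.624 to 1.58 times that of tumour macrophage replicate 1, and in epithelial cells it was 1.25 to 1.58 for tumour and 0.835 to 0.959 for WT lung. Of the gate genes, Itgam, which encodes CD11b, averaged 127 ± 12.97 FPKM in tumour and 1.30 ± 0.144 in WT macrophages, and Epcam 91.1 ± 6.24 and 87.1 ± 8.70 in tumour and WT epithelial cells. Epcam also stood at 45.3 ± 3.27 FPKM in WT and 4.502 ± 2.22 in tumour macrophages. The genes of the Ly6C and Ly6G gates were not analysed here. Sftpc and Sftpb, defining genes of alveolar type II cells, were listed at 0 in both epithelial groups, as were Sftpc in WT total lung cells and the neutrophil gene S100a9 in WT neutrophils. A 0 over a whole group may be a failed estimate in an FPKM table, and it is not read as absence. The 5 tumour comparisons, the population comparisons and the interactions below use the same libraries. In bulk RNA, fewer cells of a type and less RNA per cell cannot be told apart.

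Neutrophils carried most of these transcripts at the top of the order of group means, and epithelial cells carried most of them at the bottom. Among the subunits, Nfkb2, which encodes the p100 precursor of the non-canonical pathway, averaged 201 ± 28.5 FPKM in WT neutrophils (mean ± SD, n = 3) and 110.2 ± 9.03 in tumour neutrophils, and neither group's libraries overlapped with the next group in the order. It was lowest at 19.7 ± 0.994 FPKM in WT epithelial cells. Relb, its usual partner, ran from 76.3 ± 8.31 FPKM in WT neutrophils, overlapping with tumour macrophages at 63.6 ± 24.8, down to 7.11 ± 0.584 in WT epithelial cells. Rel, the lymphoid and myeloid subunit c-Rel, spanned a wider range: 106 ± 15.1 FPKM in WT neutrophils and 5.34 ± 0.482 in tumour epithelial cells. Nfkb1, which encodes the p105 precursor, was the flattest subunit. Its means lay between 40.3 ± 1.27 FPKM in tumour epithelial cells and 117 ± 10.3 in tumour monocytes (n = 2), and every neighbour from tumour monocytes down to WT total lung cells overlapped with the next.

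Nfkbia, the inhibitor that retains dimers in the cytoplasm, was the most abundant member in all 10 groups, from 91.4 ± 13.6 FPKM in WT epithelial cells to 3782 ± 368 in tumour neutrophils. Nfkbie, which encodes the related inhibitor IkappaBepsilon, covered the widest span of the IkappaB group, from 2.65 ± 0.876 FPKM in WT epithelial cells to 223 ± 43.1 in WT neutrophils. Nfkbiz, a nuclear IkappaB that helps induce secondary response genes, reached 904 ± 96.4 FPKM in WT and 854 ± 49.2 in tumour neutrophils, whose libraries overlapped. Bcl3, the nuclear IkappaB that binds p50 and p52 homodimers, was the only member whose lowest mean was not in epithelial cells. Its lowest group was WT macrophages at 3.83 ± 0.594 FPKM (n = 2), below WT epithelial cells at 12.4 ± 0.410, and the libraries of these neighbours did not overlap.

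Of the ubiquitin-system members, Tnfaip3 was highest in tumour neutrophils at 1003 ± 287 FPKM and next in tumour macrophages at 819.6 ± 22.0, and these 2 groups overlapped. Birc3, the ligase cIAP2 of the tumour necrosis factor receptor complex, stood apart in neutrophils. It averaged 485 ± 70.3 FPKM in WT and 370.4 ± 10.8 in tumour neutrophils, while the next group, tumour total lung cells, averaged 140.4 ± 37.2. The plot of levels in each library shows these orders for all 10 genes.

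**Figure D1:**
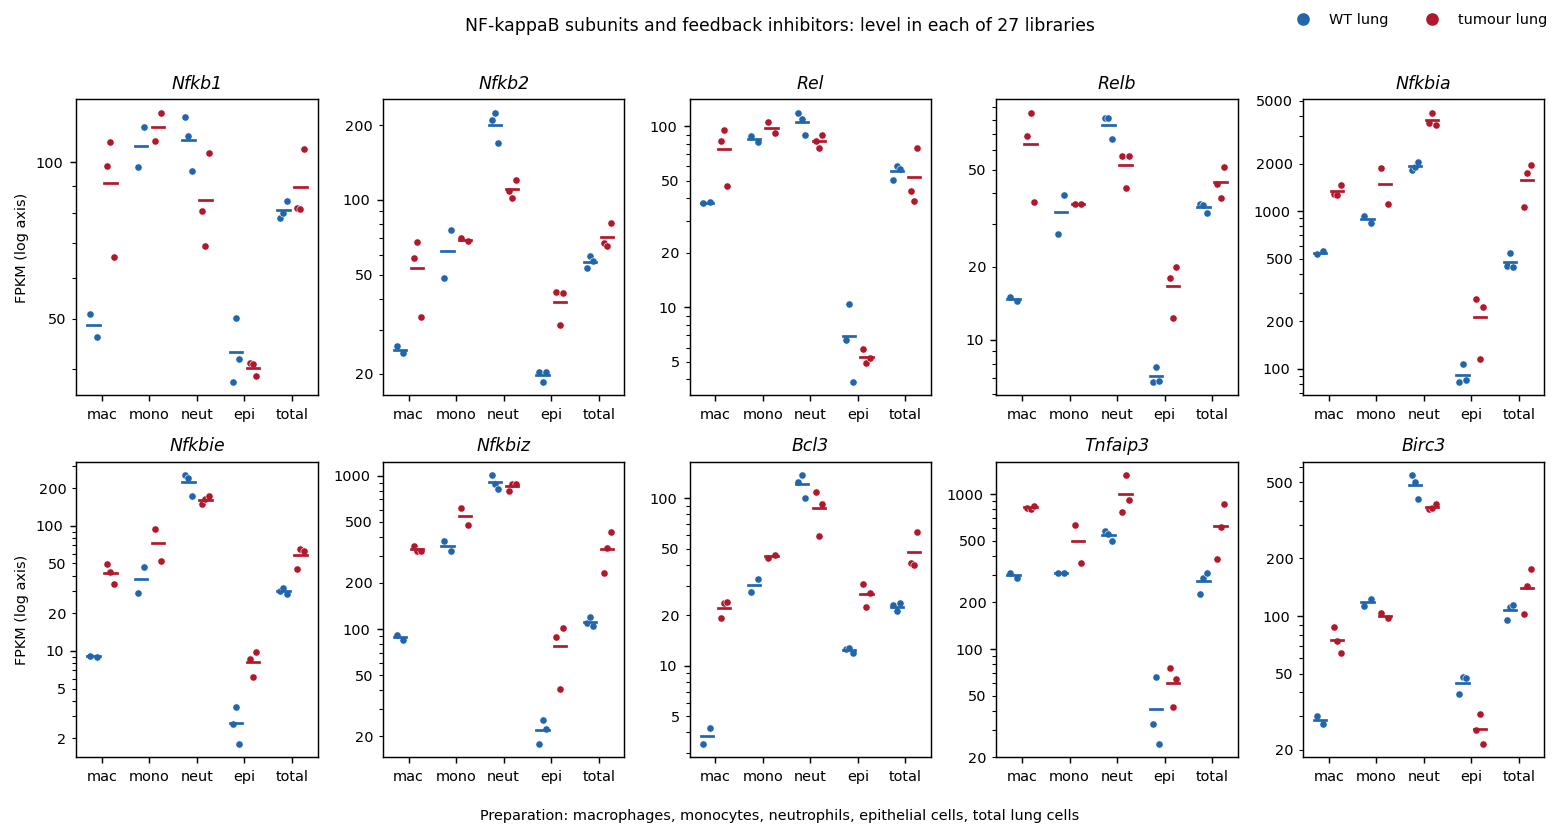
FPKM of each member (log axis) in every library of 5 preparations, WT lung in blue and tumour lung in red, with 1 point per library and a bar at the group mean. Neutrophils lie highest for most members and epithelial cells lowest. In macrophages all tumour points lie above all WT points for every member. The share of all genes that separate in this way was not counted.

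Within WT lung, all 10 members were higher in neutrophils than in macrophages, where 22.6% of all genes tested were called higher and 61.2% lower. Bcl3 differed by 4.65 ± 0.16 (adjusted p = 2.16e-07), Nfkbie by 4.46 ± 0.17 (adjusted p = 3.42e-07) and Birc3 by 4.02 ± 0.14 (adjusted p = 2.55e-07), the largest of the 10. Tnfaip3 differed least, by 0.86 ± 0.11. Within tumour lung, 6 members were higher in neutrophils, at a background of 17.5% higher and 63.4% lower. They were Nfkb2 at 1.09 ± 0.24, Nfkbie at 1.93 ± 0.15, Nfkbiz at 1.36 ± 0.12, Bcl3 at 1.88 ± 0.22, Birc3 at 2.30 ± 0.13, and Nfkbia, whose mean FPKM was 2.83 times that of macrophages (adjusted p = 5.94e-05). Nfkb1, Rel, Relb and Tnfaip3 overlapped between the populations, with differences of -0.10 ± 0.22, 0.21 ± 0.24, -0.21 ± 0.29 and 0.25 ± 0.21. The median gene lay -0.81 (WT) and -0.68 (tumour) from 0 in these comparisons. Scaling libraries to equal upper quartiles moved the tumour median to -0.02 and the calls over all genes from 1762 higher and 6371 lower to 3664 and 3793, and with it Nfkb1 turned to 0.69 and was called higher, Relb turned to 0.57, and Rel and Tnfaip3 were called higher at 0.99 and 1.05. Quantile normalization also turned Nfkb1, to 0.21, and Relb, to 0.17, and called Tnfaip3 higher at 0.80. In WT lung these scalings gave 3511 higher and 4448 lower, and 3674 and 4386, in place of 2317 and 6273. Without tumour macrophage replicate 3, Relb was called lower in neutrophils, at -0.56.

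Macrophages exceeded epithelial cells in 8 members in tumour lung and 7 in WT lung. Rel set them furthest apart after Tnfaip3 in tumour lung, at 3.52 ± 0.26 (adjusted p = 3.21e-05) and 3.77 ± 0.21 (adjusted p = 1.15e-05). The background in tumour lung was 20.5% of genes higher and 47.5% lower, and Nfkb2 and Bcl3 were not called, at 0.41 ± 0.27 and -0.25 ± 0.15. Nfkb2 was called at 0.70 without tumour macrophage replicate 3, and Bcl3 was called lower at -0.37 without tumour epithelial replicate 10. In WT lung the background was 22.7% higher and 41.4% lower. There Bcl3 was lower in macrophages by -1.48 ± 0.16 (adjusted p = 0.000254) and Birc3 by -0.62 ± 0.13 (adjusted p = 0.00603), and Nfkb1 was not called at 0.18 ± 0.14. The Birc3 call was lost without WT macrophage replicate 2 (adjusted p = 0.0613). Nfkb2, higher by 0.33 ± 0.12 with adjusted p = 0.0440, lost its call with any single library left out and in a fit of all 10 groups. Median genes lay at -0.37 in tumour and -0.29 in WT lung. Quantile normalization moved these medians to -0.02 and 0.03, with all-gene calls of 3569 higher and 3594 lower in place of 2397 and 5550 in tumour lung, and of 3513 and 3394 in place of 2617 and 4771 in WT lung.

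The question of the series, cells of tumour lung against their counterparts of WT lung, was then put to each preparation. In macrophages all 10 members rose in tumour lung. The IkappaB genes Bcl3, Nfkbie and Nfkbiz and the subunit Relb rose most, with mean FPKM 5.81, 4.67, 3.76 and 4.32 times those of WT macrophages. Over all genes tested, 20.3% were higher and 17.7% lower, and the median difference was 1.40 over the members and 0.00336 over all genes. The WT macrophages were sorted as CD11b- and the tumour macrophages as CD11b+, so tumour and gate cannot be told apart here.

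Among the IkappaB members, Bcl3 stood at 19.2, 23.6 and 23.9 FPKM in tumour replicates 1 to 3 and at 3.41 and 4.25 in WT replicates 1 and 2. All tumour libraries lay far above both WT libraries, a difference of 2.27 ± 0.15 (adjusted p = 6.78e-05). Nfkbie read 49.8, 42.8 and 34.1 FPKM against 9.16 and 8.93, a difference of 2.09 ± 0.16 (adjusted p = 0.000154). Nfkbiz read 349, 323 and 323 FPKM against 91.4 and 85.2 (difference 1.90 ± 0.10, adjusted p = 2.75e-05). For both genes the tumour libraries were close to each other and clear of the WT pair. Nfkbia, already abundant in WT macrophages, went from 532 and 556 FPKM to 1289, 1262 and 1454, a rise of 1.29 ± 0.13 (adjusted p = 0.000410). The A20 gene Tnfaip3 moved in the same way, from 308 and 288 to 818, 799 and 843 FPKM (difference 1.46 ± 0.11, adjusted p = 0.000118), with its 3 tumour libraries almost level. Birc3 read 88.1, 73.6 and 64.1 FPKM in tumour and 30.1 and 27.3 in WT macrophages, and rose by 1.35 ± 0.15 (adjusted p = 0.000640).

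The subunits rose with more spread among the tumour libraries. Relb read 68.7, 85.4 and 36.7 FPKM in tumour replicates 1 to 3 and 15.0 and 14.5 in the WT pair, and rose by 1.96 ± 0.32 (adjusted p = 0.00390). Replicate 3 was the lowest tumour library, though still above both WT libraries. Nfkb2 showed the same order at 58.4, 67.8 and 33.8 FPKM against 25.8 and 24.3 (difference 1.004 ± 0.27, adjusted p = 0.0278). Rel read 82.8, 95.3 and 46.5 against 37.5 and 38.0 FPKM (difference 0.91 ± 0.28, adjusted p = 0.0434), and Nfkb1 98.5, 109.6 and 65.7 against 51.2 and 46.2 (difference 0.86 ± 0.21, adjusted p = 0.0197). All 4 subunits were lowest in replicate 3, as were Nfkbie, Birc3 and, by a small margin, Nfkbiz. In contrast, Nfkbia, Bcl3 and Tnfaip3 were highest there. The calls of Nfkb2 and Rel were lost without tumour replicate 1, tumour replicate 2, WT replicate 1 or WT replicate 2, and that of Nfkb1 without any of these but tumour replicate 2. With all rows of the table tested, Nfkb1, Nfkb2, Rel and Relb missed the threshold, Relb at adjusted p = 0.0525, which left 6 of 10. Rel also missed it under upper-quartile scaling (adjusted p = 0.0539) and quantile normalization (0.0593).

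Markers of other cells moved with these libraries. The 5 of 6 dendritic cell markers in the table summed to 273, 419.7 and 95.9 FPKM in tumour replicates 1 to 3 and to 65.8 and 58.3 in the WT pair, in the same order as the 4 subunits. Summed neutrophil markers, 6 of 7 in the table, ran from 180.1 to 545 FPKM in tumour and 42.5 to 65.9 in WT macrophages, and against this tumour neutrophils held 24846 to 30479. Alveolar macrophage markers, 4 of 8 in the table, summed to 176 to 329 FPKM in tumour and 694 to 785 in WT macrophages. Monocyte markers, 5 of 6 in the table, summed to 303 to 396 FPKM in tumour and 81.8 to 87.2 in WT macrophages. Epithelial markers summed to 114 to 734 FPKM in tumour and 1129 to 1255 in WT macrophages, and endothelial markers to 4.34 to 9.10 and 42.2 to 44.5. No marker of these lists was at 0 in a whole group, and their part in the rise of the members was not tested.

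**Figure D2:**
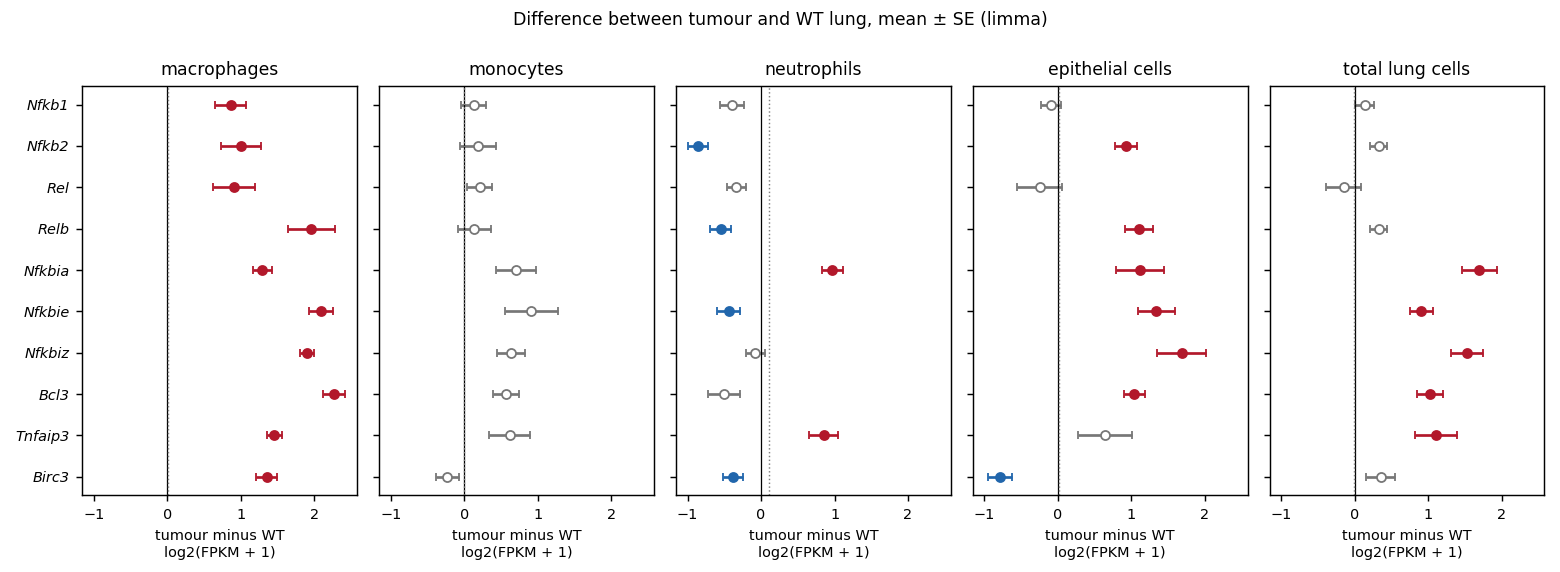
Tumour minus WT on the log2(FPKM + 1) scale for each member in 5 preparations, with the limma standard error as bars. Red points were called higher and blue points lower at an adjusted p under 0.05, open points were not called, and the dotted line is the median of all genes tested. All 10 points are red in macrophages, none is filled in monocytes, and neutrophils hold 2 red and 4 blue points.

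In neutrophils the circuit did not move as a block. Nfkbia and Tnfaip3, the 2 classical feedback inhibitors, rose in tumour lung to 1.96 and 1.85 times their WT means. Nfkb2, Relb, Nfkbie and Birc3 fell. The counts are 2 higher and 4 lower of 10 members, where 33.3% of all genes were higher and 25.8% lower. The median gene lay at 0.11 and the members' median at -0.39.

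Nfkbia read 3648, 4198 and 3499.7 FPKM in tumour replicates 6 to 8 and 1829, 1917 and 2039.6 in WT replicates 5 to 7. Every tumour library was clear of every WT library, with a difference of 0.97 ± 0.14 (adjusted p = 0.000592). Tnfaip3 read 771, 1325 and 915 FPKM against 579.9, 554 and 496, also without overlap, though tumour replicate 7 stood well above the other two (difference 0.85 ± 0.20, adjusted p = 0.00534). Both rises held under every alternative run. Nfkb2 went the other way, from 209.8, 224 and 169 FPKM in WT to 108, 102 and 119.9 in tumour neutrophils, a difference of -0.85 ± 0.13 (adjusted p = 0.000820). Relb read 81.1, 81.2 and 66.8 FPKM in WT and 57.0, 42.2 and 57.0 in tumour libraries, which did not overlap (difference -0.55 ± 0.15, adjusted p = 0.0110). These 2 non-canonical subunits also kept their calls under every alternative run.

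The other falls were smaller. Nfkbie read 254, 241 and 174 FPKM in WT and 149.5, 163 and 173 in tumour neutrophils, and the closest libraries were 174 and 173 FPKM (difference -0.44 ± 0.16, adjusted p = 0.0364). Birc3 read 544, 504 and 408 and 362, 367 and 382 FPKM (difference -0.38 ± 0.13, adjusted p = 0.0367). Both calls were lost with no filter, in a fit of all 10 groups and under quantile normalization, where Nfkbie was at -0.07 and Birc3 turned to 0.056. They were also lost without tumour replicate 6, 7 or 8, or WT replicate 5 or 6. Nfkb1, Rel and Bcl3 overlapped between the groups, at -0.39 ± 0.16, -0.34 ± 0.13 and -0.50 ± 0.22 with adjusted p = 0.0663, 0.0548 and 0.0745. Each gained a call in some settings: Nfkb1 and Rel under upper-quartile scaling (adjusted p = 0.0457 and 0.0239) and without WT replicate 7 (0.0448 and 0.0136), Nfkb1 without tumour replicate 8 (0.0185), and Bcl3 without tumour replicate 6 (0.0261) and in the fit of all 10 groups (0.0278). Nfkbiz, at 798, 885 and 881 FPKM in tumour and 1008, 887 and 818 in WT neutrophils, differed by -0.08 ± 0.13 (adjusted p = 0.623), and quantile normalization turned it to 0.36 and called it higher (adjusted p = 0.0188).

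Marker sums of other cells differed between the neutrophil groups in both directions. All 5 B cell markers were in the table and summed to 168 to 244 FPKM in WT and 7.90 to 57.6 in tumour neutrophils, where WT total lung cells held 764 to 1375. The 7 epithelial markers summed to 661 to 3080.4 FPKM in WT and 49.7 to 96.8 in tumour neutrophils, and the dendritic cell markers to 30.2 to 61.3 and 5.16 to 10.98. Alveolar macrophage markers summed to 5.37 to 11.8 FPKM in WT and 30.3 to 48.1 in tumour neutrophils, and monocyte markers to 56.5 to 67.9 and 71.3 to 99.8, higher in tumour libraries. The member levels of WT total lung cells, such as Nfkb2 at 56.4 ± 3.11 FPKM and Birc3 at 107 ± 10.4, were below those of both neutrophil groups. Total lung cells are a mixture, so these levels do not give those of B cells, dendritic cells or any other single type. The part of these markers in the falls was not tested.

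In monocytes no member was called, and no gene of the table was (0% higher and 0% lower, with a lowest adjusted p of 0.0911 by limma). At an unadjusted p under 0.05, 4 members were higher and 0 lower, beside 744 and 815 genes of the table. The 4 were the IkappaB genes. Nfkbia read 1884 and 1103 FPKM in tumour replicates 4 and 5 and 934 and 842 in WT replicates 3 and 4 (0.70 ± 0.27, adjusted p = 0.322). Nfkbie read 94.8 and 52.2 against 29.2 and 46.5 (0.91 ± 0.36, adjusted p = 0.321). For both genes tumour replicate 4 was well above replicate 5, which lay close to the WT pair. Nfkbiz read 617 and 477 against 375 and 323 FPKM (0.64 ± 0.19, adjusted p = 0.236). Bcl3 read 44.0 and 46.0 against 27.4 and 33.0 (0.56 ± 0.18, adjusted p = 0.250). In a fit of all 10 groups Nfkbie was called, with adjusted p = 0.0386.

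Of the monocyte members Nfkb1, Nfkb2 and Relb overlapped between the groups. The share of all genes without overlap in groups this small was not counted. The lack of overlap of the other members is therefore not read as a difference. Nfkb1 read 109.9 and 124 FPKM in tumour and 98.1 and 117 in WT, and Relb 36.0 and 36.3 against 27.2 and 39.5. Rel read 105 and 91.2 against 87.8 and 81.6 FPKM, and Nfkb2 70.5 and 68.1 against 48.7 and 75.5. Differences of these 4 subunits ran from 0.13 ± 0.18 to 0.21 ± 0.17. Tnfaip3 read 628 and 361 against 309 and 311 FPKM, and Birc3 103 and 97.5 against 113 and 123, with differences of 0.62 ± 0.28 and -0.23 ± 0.16. WT replicate 4 summed to 2637 FPKM of neutrophil markers and WT replicate 3 to 193, against 499 and 352 in the tumour pair. Nfkb1, Nfkb2, Relb, Nfkbie, Bcl3, Birc3 and, by a small margin, Tnfaip3 were higher in WT replicate 4 than in WT replicate 3. Rel, Nfkbia and Nfkbiz were lower there. Without replicate 3 the differences of Nfkb2 and Relb turned to -0.12 each. The 6 endothelial markers summed to 69.9 to 196 FPKM in tumour and 405 to 655 in WT monocytes, and 5 of 6 T and NK cell markers to 164 to 253 and 144 to 326. The part of those markers was not tested.

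In epithelial cells the IkappaB genes and the non-canonical subunits rose and Birc3 fell. Of the 10 members 6 rose, at a background of 14.9%, and 1 fell, at a background of 8.89%. Over all genes that was 1765 higher and 1051 lower, and 2456 and 668 under upper-quartile scaling. Nfkbiz and Nfkbie changed most, to 3.52 and 3.09 times their WT means. Nfkbiz read 89.5, 41.0 and 101 FPKM in tumour replicates 9 to 11 and 17.8, 25.7 and 22.3 in WT replicates 8 to 10 (difference 1.68 ± 0.33, adjusted p = 0.0182). Nfkbie read 8.60, 6.18 and 9.83 against 2.60, 3.55 and 1.804 FPKM (1.34 ± 0.25, adjusted p = 0.0148). Tumour replicate 10 was the lowest tumour library for both, and still above all WT libraries. Bcl3 read 30.7, 22.4 and 27.2 against 12.5, 12.7 and 11.9 FPKM (1.04 ± 0.15, adjusted p = 0.00741), and the narrow WT values set it apart most clearly. Nfkbia read 278, 115 and 245 against 82.4, 107 and 84.8 FPKM (1.12 ± 0.32, adjusted p = 0.0459), with replicate 10 just above the highest WT library.

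Relb read 18.0, 12.3 and 19.9 FPKM in tumour and 6.73, 7.78 and 6.82 in WT epithelial cells (1.10 ± 0.20, adjusted p = 0.0134), and Nfkb2 42.6, 31.3 and 42.4 and 20.3, 18.6 and 20.2 (0.93 ± 0.15, adjusted p = 0.0104). Neither overlapped. Birc3 read 25.2, 30.7 and 21.4 against 39.2, 48.0 and 47.5 FPKM, all tumour libraries below all WT libraries (-0.79 ± 0.16, adjusted p = 0.0201). Nfkb1, Rel and Tnfaip3 overlapped, at -0.09 ± 0.13, -0.25 ± 0.30 and 0.64 ± 0.37. The calls rested on few libraries: without tumour replicate 9 only Bcl3 stayed called of the 7, and Nfkbia and Birc3 lost their calls without tumour replicate 11 or any of WT replicates 8 to 10. Relb and Nfkbie were lost without WT replicate 8, and Nfkbiz without WT replicate 8 or 10. With all rows tested, Nfkbia, Nfkbiz and Birc3 missed the threshold.

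Macrophage markers moved with the tumour epithelial libraries. The 4 of 6 macrophage markers in the table summed to 127, 32.8 and 83.3 FPKM in tumour replicates 9 to 11 and to 14.9, 28.2 and 13.9 in WT replicates 8 to 10, while tumour macrophages held 1397 to 1777. Alveolar macrophage markers summed to 135, 31.0 and 75.9 and 24.5, 31.3 and 18.9 FPKM. Replicate 10, the lowest tumour library for both sums, was also the lowest for every member but Nfkb1 and Birc3. B cell markers moved the other way, with 28.7 to 41.7 FPKM in tumour and 81.9 to 145 in WT epithelial cells, as Birc3 did. Endothelial markers summed to 6.52 to 34.8 FPKM in tumour and 111 to 239 in WT epithelial cells, and the 5 fibroblast markers to 25.0 to 53.5 and 41.8 to 111. The leukocyte gene Ptprc was at 18.0 ± 3.75 FPKM in tumour and 24.8 ± 11.2 in WT epithelial cells (SD, n = 3 each). No macrophage or B cell marker was at 0 in a whole group, and their part in the member changes was not tested. Bcl3 was at 22.2 ± 2.64 FPKM in tumour macrophages and 26.8 ± 4.16 in tumour epithelial cells.

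**Figure D3:**
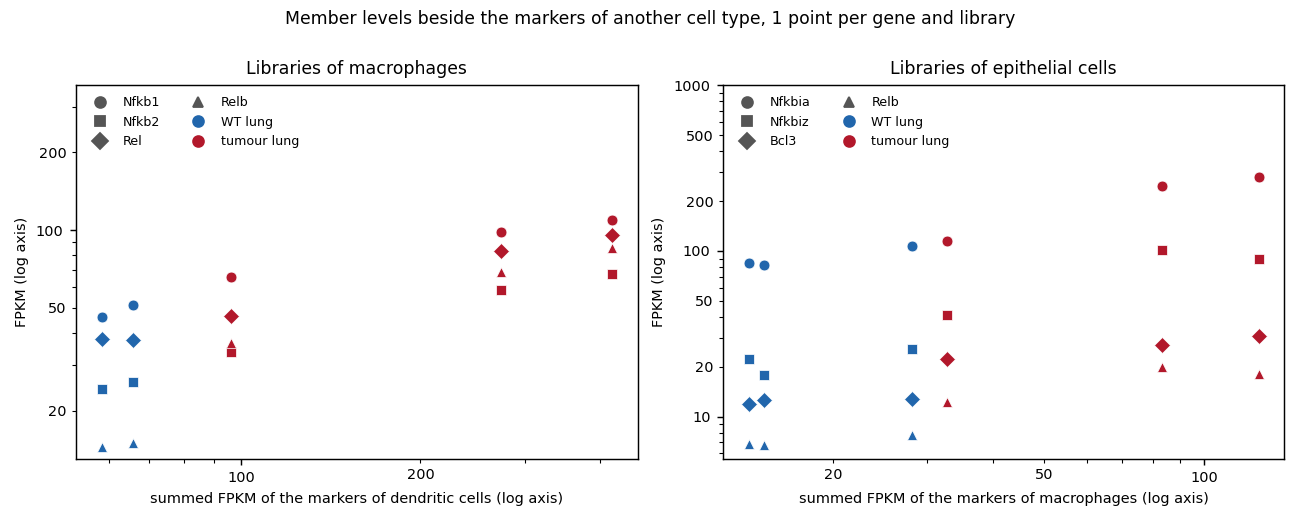
Level of 4 members in FPKM against the summed FPKM of markers of another cell type (both log axes), 1 point per gene and library, WT in blue and tumour in red. Left, macrophage libraries against dendritic cell markers; right, epithelial libraries against macrophage markers. In both panels the tumour library with the lowest marker sum also has the lowest value of each gene shown among the tumour libraries.

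In total lung cells 5 members rose and 0 fell, with 22.1% of all genes higher and 20.4% lower. The 5 were the IkappaB genes and Tnfaip3, and no subunit was among them. Nfkbia rose most, from 446, 539.6 and 439 FPKM in WT replicates 11 to 13 to 1061, 1744 and 1949 in tumour replicates 12 to 14 (1.70 ± 0.24, adjusted p = 0.00155). Nfkbiz read 231, 339 and 430.2 FPKM in tumour and 110.0, 120.4 and 104 in WT (1.53 ± 0.22, adjusted p = 0.00154). Both genes had tumour values spread over a wide range that stayed clear of tight WT values. Bcl3 read 41.2, 40.0 and 63.0 against 22.9, 21.2 and 23.5 FPKM (1.03 ± 0.17, adjusted p = 0.00324), and Nfkbie 44.8, 65.5 and 63.3 against 29.9, 31.7 and 28.3 (0.91 ± 0.15, adjusted p = 0.00320). Tnfaip3 read 383, 617 and 861 against 227, 288 and 308 FPKM (1.11 ± 0.28, adjusted p = 0.0170), a call lost with no filter, under quantile normalization and without WT replicate 11.

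Subunit differences in total lung cells were 0.14 ± 0.13 for Nfkb1, 0.33 ± 0.11 for Nfkb2, -0.15 ± 0.24 for Rel and 0.32 ± 0.12 for Relb, and Birc3 differed by 0.36 ± 0.20. The Nfkb2 and Relb libraries did not overlap, with adjusted p = 0.0511 and 0.0646, and both were called without tumour replicate 13 (0.0405 and 0.0248). Birc3 was called higher without tumour replicate 12 (adjusted p = 0.0246) and Rel lower without tumour replicate 14 (0.0379). Neutrophil markers summed to 3632, 6905 and 9138 FPKM in tumour and 1861, 2652 and 1824 in WT total lung cells, macrophage markers to 581, 253 and 548 and 63.4, 69.1 and 61.9, and B cell markers to 458, 171 and 242 and 1375, 764 and 1297. Nfkbia, Nfkbiz, Tnfaip3 and Birc3 followed the order of the neutrophil sum across the 3 tumour libraries. Nfkb1, Nfkb2, Rel, Relb, Nfkbie and Bcl3 did not. The part of cell make-up in these rises was not tested.

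Whether the tumour difference itself differed between myeloid populations was tested by an interaction term. The macrophage gates differed in CD11b between tumour and WT lung, and those of monocytes and neutrophils did not. In the interactions with macrophages, tumour and gate therefore cannot be told apart. Macrophages and neutrophils share no sample, and their tumour differences differed for 8 of 10 members, all larger in macrophages, at a background of 23.9% of genes with a larger and 28.8% with a smaller value. Bcl3 differed by 2.77 ± 0.30, Nfkbie by 2.53 ± 0.24, Relb by 2.51 ± 0.37 and Nfkbiz by 1.98 ± 0.16. The 2 members that rose in both, Nfkbia and Tnfaip3, were not called, at 0.32 ± 0.18 (adjusted p = 0.161) and 0.61 ± 0.25 (adjusted p = 0.0631). Tnfaip3 was called at 0.82 without tumour neutrophil replicate 7, and quantile normalization turned it to -0.19.

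The 3 interactions share libraries. Between macrophages and monocytes 4 members differed, Relb at 1.82 ± 0.46, Nfkbiz at 1.26 ± 0.21, Bcl3 at 1.70 ± 0.22 and Birc3 at 1.58 ± 0.21, at a background of 8.37% larger and 6.95% smaller. Over all genes that was 909 larger and 755 smaller, and 744 and 1060 under upper-quartile scaling. The count was 7 without tumour macrophage replicate 3, and Relb lost its call without any of 6 other single libraries. Between monocytes and neutrophils 3 members differed, Nfkb2 at 1.04 ± 0.27, Nfkbie at 1.36 ± 0.38 and Bcl3 at 1.07 ± 0.33, at 8.51% larger and 10.3% smaller, or 914 and 1107 genes, which became 1095 and 775 under upper-quartile scaling. All 3 calls were lost in each of 6 settings taken singly: no filter, quantile normalization, and leaving out tumour monocyte replicate 4, WT monocyte replicate 3, WT neutrophil replicate 5 or WT neutrophil replicate 6.

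To set regulators beside subunits within a library, the mean log2(FPKM + 1) of the 4 subunits was subtracted from each regulator. In macrophages, where both rose, Nfkbia stood 4.30 ± 0.63 above the subunits in tumour and 4.19 ± 0.09 in WT libraries (SD, n = 3 and 2), and Tnfaip3 3.60 ± 0.55 and 3.33 ± 0.02. The ranges of both overlapped, 3.82 to 5.01 and 4.13 to 4.26 for Nfkbia and 3.16 to 4.22 and 3.31 to 3.35 for Tnfaip3. Nfkbie (-1.02 to -0.36 in tumour and -1.58 to -1.55 in WT), Nfkbiz (1.86 to 2.84 and 1.56 to 1.60) and Bcl3 (-1.92 to -0.86 and -2.79 to -2.47) lay higher against the subunits in tumour libraries, without overlap, and Birc3 ranged -0.26 to 0.53 and -0.04 to 0.03. In neutrophils the distance of Nfkbia was 5.56 ± 0.32 in tumour and 4.06 ± 0.26 in WT libraries, with no overlap between 5.27 to 5.91 and 3.86 to 4.35. Tnfaip3 showed 3.61 ± 0.55 and 2.23 ± 0.07, again without overlap. Nfkbiz, at 3.41 ± 0.21 and 2.96 ± 0.10, did not overlap either, while Nfkbie (1.02 ± 0.18 and 0.93 ± 0.11), Bcl3 (0.09 ± 0.33 and 0.06 ± 0.09) and Birc3 (2.21 ± 0.16 and 2.06 ± 0.05) lay closer together. Total lung cells had Nfkbia at 4.62 ± 0.41 in tumour and 3.09 ± 0.13 in WT. In epithelial cells Birc3 stood at 1.58 ± 0.22 in WT and 0.37 ± 0.40 in tumour libraries, and Nfkbiz at 0.57 ± 0.21 and 1.83 ± 0.54. These distances are descriptions, with no test.

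**Figure D4:**
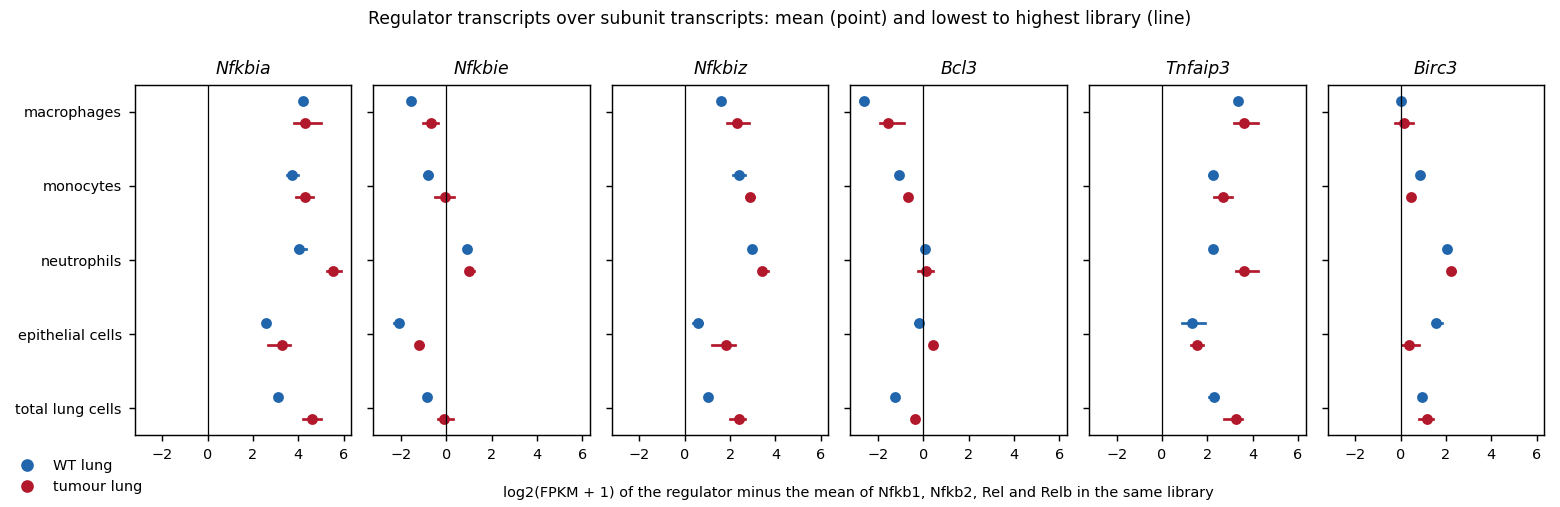
Log2(FPKM + 1) of each regulator minus the mean of the 4 subunits in the same library, by preparation, WT in blue and tumour in red, with the group mean as a point and the lowest to highest library as a line. In neutrophils the tumour ranges of Nfkbia, Nfkbiz and Tnfaip3 lie to the right of the WT ranges, while those of Nfkbie and Bcl3 overlap.

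Other genes of the pathway were read from 5 lists, 103 of 105 genes being in the table. The counts called in each list are to be read against the shares of all genes called higher and lower, which were 20.3% and 17.7% in macrophages, 33.3% and 25.8% in neutrophils, 14.9% and 8.89% in epithelial cells and 22.1% and 20.4% in total lung cells. The target genes had the highest medians of the 5 lists. In macrophages 23 of 26 were higher and 1 lower, with a median of 2.07 (all genes 0.00336). The chemokine gene Ccl4 rose from 41.0 ± 12.1 to 2956 ± 216 FPKM and Ptgs2, which encodes cyclooxygenase 2, from 2.06 ± 0.530 to 149 ± 22.6 FPKM, while the kinase gene Plk3 fell from 394 ± 21.7 to 98.6 ± 22.5 FPKM. In neutrophils, where Nfkb2 and Relb fell, 16 of 24 were higher and 4 lower, with a median of 1.47 (all genes 0.11). Il23a, a subunit of interleukin 23, rose from 10.1 ± 1.83 to 454 ± 47.2 FPKM and the chemokine Cxcl10 from 11.1 ± 2.08 to 94.7 ± 28.6 FPKM, and the glucose transporter Slc2a6 and the granulocyte factor Csf3 fell, from 386 to 129 FPKM and from 28.6 to 9.95 FPKM. In epithelial cells 10 of 26 were higher and 1 lower (median 0.67, all genes 0.01), led by the adhesion gene Vcam1, from 3.38 ± 3.13 to 55.7 ± 12.8 FPKM, and the chemokine Cxcl1, from 4.66 ± 2.92 to 77.9 ± 33.6 FPKM, with Cd83 falling from 23.5 to 12.1 FPKM. In total lung cells 22 of 27 were higher and 1 lower (median 1.55, all genes -0.01), with Il23a from 0.327 to 104 FPKM and Cxcl1 from 14.1 to 207 FPKM, and Ccl5 falling from 779.6 to 395 FPKM. In monocytes 0 of 24 were called, with a median of 1.22.

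Ligands and receptors split by preparation. In macrophages 11 of 22 were higher and 3 lower, with 20.3% and 17.7% of all genes (median 0.68, all genes 0.00336). Il1b, the cytokine interleukin 1 beta, rose from 42.9 ± 3.28 to 1326 ± 214 FPKM and the receptor Tlr1 from 0.578 to 12.4 FPKM, and Tlr4, the lipopolysaccharide receptor, fell from 27.9 to 10.9 FPKM, as did Tnfrsf12a, from 42.5 to 28.3 FPKM. In neutrophils 4 of 21 were higher and 12 lower, with 33.3% and 25.8% of all genes (median -0.57, all genes 0.11). Il1b was listed at 0 in every tumour library, which may be a failed estimate. The counts and the median do not leave Il1b out, so a failed estimate may be among the 12 lower. The ligand genes Tnf and Il1a rose, from 115 ± 11.1 to 2127 ± 427 FPKM and from 107 ± 7.28 to 1887 ± 149 FPKM, and the receptor genes Tlr6 and Tnfrsf13c fell, from 119 to 25.0 FPKM and from 7.39 to 1.18 FPKM. In epithelial cells 6 of 20 were higher and 1 lower, with 14.9% and 8.89% of all genes (median 0.33), with Tnf from 1.96 ± 2.18 to 28.9 ± 14.8 FPKM, and in total lung cells 14 of 23 were higher and 3 lower, with 22.1% and 20.4% of all genes (median 0.83), with Il1a from 10.7 to 589.9 FPKM and Il1b from 179 to 2983 FPKM rising and Tnfrsf13c from 40.2 to 9.57 FPKM falling. In monocytes 0 of 22 were called (median 0.25).

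Of the kinases and adaptors, 13 of 27 were higher and 4 lower in macrophages, 9 of 27 were higher and 7 lower in neutrophils, 2 of 27 were higher and 4 lower in epithelial cells and 7 of 27 were higher and 3 lower in total lung cells, with medians of 0.32, -0.00326, 0.28 and 0.10. The neutrophil counts are at the background of 33.3% higher and 25.8% lower, and the backgrounds of the others are 20.3% and 17.7%, 14.9% and 8.89%, and 22.1% and 20.4%. Ikbke, an IkappaB kinase relative, rose from 1.96 ± 0.326 to 39.7 ± 12.3 FPKM in macrophages and from 5.99 ± 0.572 to 47.4 ± 2.09 FPKM in neutrophils. Malt1, a paracaspase of the signalling complex, rose from 25.9 to 173 FPKM in macrophages, and the adaptor Myd88 fell from 59.3 to 36.5 FPKM. In neutrophils Traf6 rose from 5.94 to 18.4 FPKM and the kinases Ripk2 and Tbk1 fell, from 8.05 to 2.86 FPKM and from 49.9 to 27.4 FPKM. Epithelial Traf1, an adaptor that binds cIAP proteins, fell from 66.0 ± 2.27 to 23.3 ± 8.10 FPKM, and total lung Card9 rose from 7.46 to 31.5 FPKM.

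Of the other feedback inhibitors, 7 of 21 were higher and 1 lower in macrophages, 7 of 20 were higher and 6 lower in neutrophils, 3 of 21 were higher and 1 lower in epithelial cells and 7 of 21 were higher and 1 lower in total lung cells (medians 0.24, 0.13, 0.13 and 0.25). Here too the neutrophil counts are near the background of 33.3% and 25.8%. Tnip3, an A20-binding inhibitor, rose from 0.939 ± 0.454 to 23.4 ± 2.23 FPKM in macrophages and from 0.965 to 11.4 FPKM in epithelial cells. In neutrophils Zfp36, which speeds the decay of cytokine mRNA, rose from 1094 ± 106 to 3772 ± 621 FPKM and N4bp1 from 43.1 to 127 FPKM, while Socs1 and Nlrc5 fell, from 12.5 to 3.74 FPKM and from 10.1 to 4.61 FPKM. N4bp1 rose from 10.0 to 40.6 FPKM in total lung cells. In monocytes 0 of 27 kinases and adaptors and 0 of 21 feedback inhibitors were called (medians 0.15 and 0.13).

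Of the 4 remaining family genes, Rela, Nfkbib, Nfkbid and Nfkbil1, 1 was higher and 1 lower in macrophages, 1 higher in neutrophils, 1 higher in epithelial cells and 2 higher in total lung cells. They had medians of 0.33, 0.21, -0.02, 0.27 and 0.52 in macrophages, monocytes, neutrophils, epithelial and total lung cells. Nfkbid, a nuclear IkappaB, rose in neutrophils from 486 ± 12.5 to 827 ± 104 FPKM and in macrophages from 102 ± 3.01 to 155 ± 29.7 FPKM. Nfkbil1 fell in macrophages from 13.7 to 7.93 FPKM and rose in epithelial cells from 5.70 to 10.9 FPKM. Rela, the canonical partner of p50, was at 44.0 ± 5.17 FPKM in tumour and 38.5 ± 1.45 in WT macrophages, and was not called in any preparation. None of these 4 genes was called in monocytes.

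**Figure D5:**
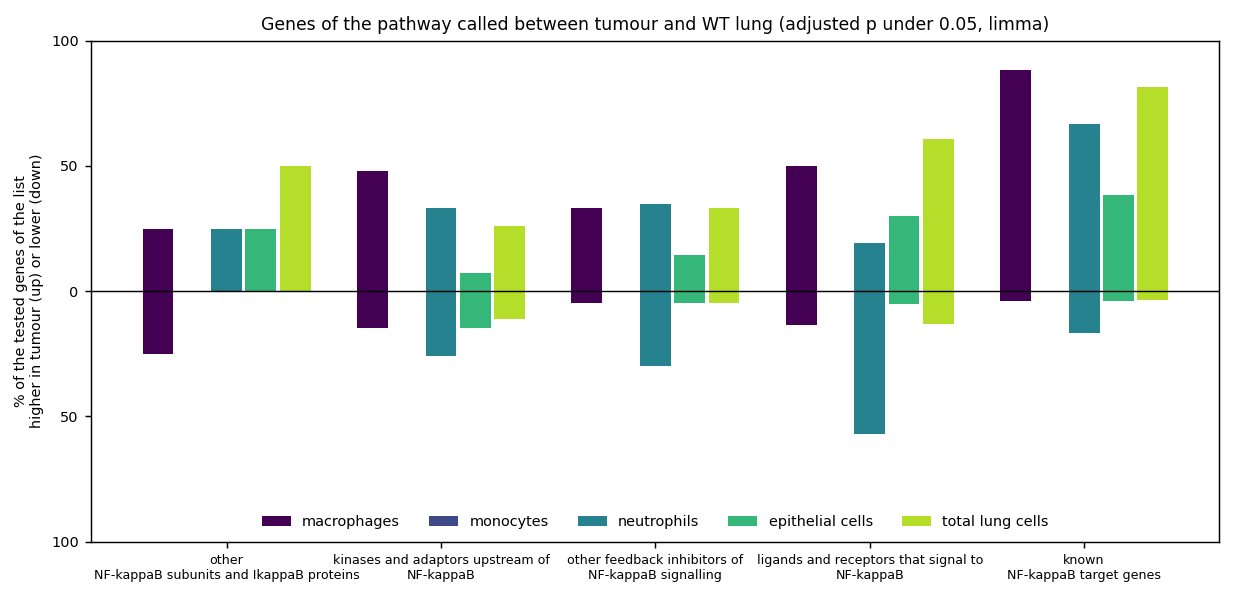
Percent of the tested genes of each of 5 pathway lists called higher (up) or lower (down) in tumour than in WT lung, by preparation, at an adjusted p under 0.05. Known target genes have the tallest upward bars in macrophages, neutrophils, epithelial cells and total lung cells, ligands and receptors point mostly down in neutrophils, and monocytes have no bar.

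Likeness of pattern was read from group means of log2(FPKM + 1) over the 10 groups. Nfkbie and Nfkbiz were each other's closest member (Pearson r = 0.97), as were Nfkbia and Tnfaip3 (0.96) and Nfkb1 and Rel (0.92). Nfkb2 was closest to Nfkbie (0.96), Relb to Nfkbie (0.94), and Birc3 and Bcl3 to Nfkb2 (0.92 and 0.91). Bcl3 was the least alike member for 7 of the other 9, down to 0.47 with Rel and with Tnfaip3. Of 9905 other genes, the mean profile of the 10 members was most like Ptafr (0.988), Clec4e (0.983), Gpr35 (0.981), Lpcat2 (0.976) and Ebi3 (0.975). Ptafr, the receptor for platelet-activating factor, averaged 452 FPKM in tumour neutrophils, 66.3 in tumour macrophages and 1.74 in WT macrophages. These values are descriptions over 10 group means, which share libraries and depth.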

How the data were processed

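RNA was sequenced from 27 libraries in 10 groups of 2 or 3, as described above. Values were FPKM per gene, deposited by the authors as 1 table of 16024 rows. Per the submitters' processing notes, CASAVA 1.8.2, TopHat2, Cufflinks and Cuffdiff were used with the build mm10 (GRCm38); versions of the others, and how they were combined, are not given in the sources used here. Total counts per library were not analysed here, so the depth is unknown beyond the rough relative scale above. 0 columns of values had no sample.

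The 10 members, the pathway lists and the marker lists (52 of 62 markers in the table) were chosen with earlier results of these data known. Tests were run in R 4.3.3 (limma 3.58.1, variance trend over intensity) on log2(FPKM + 1). A gene was tested where 2 or more libraries of the comparison reached 1 FPKM. P-values were adjusted by Benjamini-Hochberg over all genes tested, with a threshold of 0.05. A difference on this scale understates the change of low genes. Interactions contrasted the tumour minus WT difference of 2 populations. The method was tested on simulated data.

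All 10 members are named in every comparison. Of each pathway list, at most the 2 largest rises and 2 largest falls among called genes could be named, where the higher group averaged at least 5 FPKM. For likeness, each member's closest member and the 5 genes closest to the mean profile are named. A gene at 0 in a whole group where the other group averaged at least 5 FPKM was named as listed at 0. Counts of called genes did not leave such genes out, except in the alternative that does so. Alternatives were a pseudocount of 0.1, no filter, upper-quartile scaling, quantile normalization, 1 fit of all 10 groups, genes listed at 0 left out, a replicate block, and each library left out. Leaving out a library of a pair assumes that the lone sample varies like the other group. Python 3.11.15 with numpy 2.4.6, pandas 2.3.3 and matplotlib 3.10.9 made the summaries, promoter matches and plots. Promoter windows are from RefSeq.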

Additional observations from a re-analysis of the deposited data

Results flagged for a closer look

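The tumour minus WT difference differed between myeloid populations for several members, by the limma interaction term with Benjamini-Hochberg adjustment. No explanation was tested. Tumour macrophages were sorted as CD11b+ and WT macrophages as CD11b-, so tumour and gate cannot be told apart in any difference of macrophages below. Macrophages had larger differences than monocytes for Relb, by 1.82 (adjusted p = 0.0291), Nfkbiz, by 1.26 (0.00483), Bcl3, by 1.70 (0.00152), and Birc3, by 1.58 (0.00169). Of all genes tested, 8.37% had a larger and 6.95% a smaller value. The Birc3 libraries lay above WT in 3 of 3 tumour macrophage libraries and below WT in both tumour monocyte libraries. Birc3 was not called in monocytes.

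Macrophages had larger differences than neutrophils for 8 members, at a background of 23.9% of genes with a larger and 28.8% with a smaller value. The subunits differed by 1.25 (Nfkb1, adjusted p = 0.00366), 1.86 (Nfkb2, 0.000482), 1.24 (Rel, 0.00705) and 2.51 (Relb, 0.000188). Nfkbie differed by 2.53 (adjusted p = 7.80e-06), Nfkbiz by 1.98 (2.76e-06), Bcl3 by 2.77 (2.14e-05) and Birc3 by 1.73 (3.52e-05).

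Monocytes had larger differences than neutrophils for Nfkb2, by 1.04 (adjusted p = 0.0240), Nfkbie, by 1.36 (0.0344), and Bcl3, by 1.07 (0.0478). The background was 8.51% of genes with a larger and 10.3% with a smaller value. All of these calls were lost with no filter and under quantile normalization, and with some single libraries left out.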

How the results depend on the processing

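Of 1550 member tests under alternatives, 1391 kept their direction and side of the threshold, 105 lost a call, 31 gained one and 23 changed direction. The cause of these changes was not tested, and unknown depth limits all values.

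With no filter, more genes are tested. Members called were then 6 higher in macrophages, 2 lower in neutrophils, 0 lower in epithelial cells and 0 between monocytes and neutrophils. Of all 16024 genes, 1564 were then higher in macrophages, 2498 lower in neutrophils and 359 lower in epithelial cells. Between monocytes and neutrophils 715 were larger. Upper-quartile scaling gave 5 members between monocytes and neutrophils, beside 1095 of 10738 genes with a larger value. That scaling turned Nfkb1 to 0.038 in epithelial cells. In tumour neutrophils against macrophages it turned Nfkb1 to 0.69 and Relb to 0.57. Quantile normalization gave 2 lower members in neutrophils, with Nfkbiz at 0.36 and Birc3 at 0.056, and 0 between monocytes and neutrophils, with Birc3 at -0.45. Over all genes it gave 2479 of 9349 lower in neutrophils and 833 of 10738 larger between monocytes and neutrophils. It also turned Nfkb1 to -0.13 in total lung cells, Tnfaip3 to -0.19 between macrophages and neutrophils, and Nfkb1 to 0.21 and Relb to 0.17 in tumour neutrophils against macrophages. The fit of all 10 groups called 1 member higher in monocytes.

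With each library left out in turn, members called ranged from 2 to 6 lower in neutrophils, from 1 to 6 higher and 0 to 1 lower in epithelial cells, and from 0 to 1 lower in total lung cells. They ranged from 0 to 1 lower in tumour neutrophils against macrophages and in tumour macrophages against epithelial cells, and from 1 to 2 lower in WT macrophages against epithelial cells. The interactions ranged from 3 to 7 (macrophages against monocytes) and 0 to 4 (monocytes against neutrophils). In the first, 638 of 10817 genes were larger without tumour macrophage replicate 1 (3 members) and 982 of 10836 without replicate 3 (7 members). In the second, 665 of 10699 were larger without WT neutrophil replicate 5 (0 members) and 879 of 10700 without replicate 7 (4 members). In monocytes Nfkb2 ranged from -0.12 to 0.50 and Relb from -0.12 to 0.40, and Nfkbiz in neutrophils from -0.15 to 0.00285. In epithelial cells Nfkb1 ranged from -0.18 to 0.017 and Rel from -0.56 to 0.057, and Rel in total lung cells from -0.44 to 0.040. In tumour neutrophils against macrophages Nfkb1 ranged from -0.31 to 0.052, Rel from -0.10 to 0.41 and Relb from -0.56 to 0.037. Between monocytes and neutrophils Nfkbia ranged from -0.65 to 0.12 and Tnfaip3 from -0.63 to 0.17. Counts over all genes moved too. In WT macrophages against epithelial cells 4581 of 11297 were lower without WT epithelial replicate 10 (2 members). In neutrophils 2281 of 9283 genes were lower without tumour replicate 7 (2 members) and 2296 of 9176 without WT replicate 7 (6 members). In epithelial cells 386 of 11647 were higher without tumour replicate 9 (1 member) and 2420 of 11762 without tumour replicate 10 (6 members). In total lung cells 1995 of 11672 were lower without tumour replicate 12 (0 members) and 2052 of 11683 without replicate 14 (1 member). In tumour neutrophils against macrophages 5992 of 9885 were lower without macrophage replicate 1 (0 members) and 6229 of 9948 without replicate 3 (1 member). In tumour macrophages against epithelial cells 4747 of 11644 were lower without macrophage replicate 1 (0 members). Without epithelial replicate 10 they were 5605 of 11460 (1 member).

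The replicate block gave 2 lower members in neutrophils, 0 higher and 0 lower in epithelial cells, and -0.012 for Nfkb1 in total lung cells, where it also ended the call of Tnfaip3 (adjusted p = 0.0760). The numbers run on through the libraries, and the deviations of same-numbered libraries correlated at -0.17 to 0.08, so the block pairs libraries by number only. The block was run in macrophages, neutrophils, epithelial cells and total lung cells. It was not run in monocytes, whose groups share only 1 number, or in the population and interaction comparisons.

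Over all genes, the block gave 1904 higher and 1660 lower in neutrophils, in place of 3115 and 2409. In epithelial cells it gave 307 higher and 90 lower, in place of 1765 and 1051. In total lung cells it gave 1285 and 1138, in place of 2599 and 2394. The fit of all groups gave 540 higher and 612 lower in monocytes and 2974 and 2369 in epithelial cells, where no filter gave 955 and 359. Without WT macrophage replicate 1 or 2, macrophages had 1105 or 1160 genes higher and 673 or 685 lower, WT macrophages against epithelial cells 1581 or 1557 higher, and the interaction with monocytes 462 or 442 larger and 311 or 304 smaller. Without tumour monocyte replicate 5, 161 genes were higher and 149 lower in monocytes. In epithelial cells, counts ranged from 386 higher and 104 lower without tumour replicate 9 to 1795 lower without tumour replicate 10; they were 715 and 286 without tumour replicate 11, and 499 and 129, 1111 and 524, and 755 and 180 without WT replicates 8, 9 and 10. Between monocytes and neutrophils, smaller values numbered 662, 636 and 677 without tumour monocyte replicate 4 and tumour neutrophil replicates 6 and 8. Upper-quartile scaling moved the median of all genes from 0.013 to 0.13 in epithelial cells and from 0.11 to 0.073 in neutrophils. It gave 1705 higher and 2214 lower genes in macrophages in place of 2050 and 1788.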
